A study of Homo sapiens and Mus musculus with 69 samples.

Results

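The levels of 10 genes that encode neuropeptides and peptide hormones were followed through every group of a bulk RNA-Seq study of small cell lung cancer (SCLC) cells. The genes were *GRP*, *NMB*, *NPY*, *GAL*, *CALCA*, *CALCB*, *ADCYAP1*, *TAC1*, *SST* and *VGF*, a set fixed by name, with earlier results of these data known. They are 10 of the 20516 genes in the human table, and their mouse counterparts are 10 of the 18501 genes in the mouse table.

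SCLC is a neuroendocrine cancer, and its cells store short signaling peptides in dense core granules. Such a peptide is made as a longer precursor that proteases of the granule cut, and the product is released to act on G protein–coupled receptors of the same or of neighboring cells. Gastrin-releasing peptide, the product of *GRP*, is the classical autocrine growth factor of SCLC, and its precursor is used as a serum marker of the disease. Notch signaling represses the neuroendocrine program, in part through *REST*, a repressor that binds neuronal genes and silences them outside the nervous system.

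The study sequenced polyA RNA of 69 libraries in 23 groups of 3, of which 60 libraries came from human cells (H82, H524, H69, COR-L88) and 9 from KP1, a mouse SCLC line from tumors lacking Rb1 and Trp53. H82, H524 and H69 were sequenced as parental cells and with a viral, doxycycline-inducible vector for the human NOTCH1 intracellular domain (N1ICD, the active form of the receptor), without doxycycline and with doxycycline at 1 µg/mL. H524 with an inducible *REST* vector was handled in the same way, and H82 N1ICD cells were also labelled as carrying a *REST* or a *STING1* knockout (KO), each without and with doxycycline. COR-L88 cells received DMSO, TAS1440 at 100 nM (an inhibitor of LSD1, a histone demethylase, given to switch on Notch) or TAS1440 with a γ-secretase inhibitor (GSI, at 2 µM, which blocks Notch receptor cleavage), and *STING1* KO cells received DMSO or TAS1440. KP1 cells received DMSO, TAS1440 at 100 nM or TAS1440 with a different GSI at 10 µM. These treatments lasted 28 days in COR-L88 and more than 28 days in KP1. Doxycycline was given for at least 28 days and only adherent cells were then collected, so that N1ICD, doxycycline and the choice of adherent cells cannot be told apart. The paper's figure legends give longer times, with a different one for H69 than for H82 and H524, and the labels give none. The knockouts were made with a single CRISPR guide for each gene. The paper's blots show single-cell clones of *REST* KO and *STING1* KO cells, and the labels do not name the clone sequenced. Loss of the gene and differences between clones therefore cannot be told apart in comparisons of knockout and intact cells. The labels name no batch, and each group holds its own run of library numbers. Nothing in the labels says that the 3 libraries of a group were separate cultures, and *P* values measure the spread between these libraries.

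Values are log2(RPKM + 1), where RPKM is reads per kilobase of transcript, scaled to library size, so levels are per length and a level of 0 is a gene with no reads assigned. The word level is used for these values and the word difference for a difference between 2 group means on that scale, given with its SE from limma. A gene passed the threshold with an adjusted *P* under 0.05 and a difference of at least 1 in size, and genes were tested in a cell line where at least 3 of its libraries reached a level of 1. The share of all genes whose groups did not overlap was not computed, so such statements describe single genes only. The filter itself can select a gene for being high in 1 group, and 16 of 144 calls of members were of this kind, fewer than 3 libraries outside the highest group of the comparison reaching a level of 1. They concern *GRP*, *SST*, *NPY* and *TAC1* in H82, *CALCA* in H524 and COR-L88 and *GRP* in H69, and a count of members past the threshold that includes one of them supports nothing about the members. In fits of every gene with a value above 0 in the libraries fitted, which do not select in this way, all 16 passed (highest adjusted *P* 0.0212). The check was made for the members only and not for the other gene lists below. The relative size of the libraries was 0.699 to 1.53 times the median in the human table and 0.872 to 1.08 in the KP1 table, the depth itself being unknown, and libraries of a group correlated at *r* of 0.936 or more. All 4 human lines carried neuroendocrine markers before treatment (summed level of *NEUROD1*, *INSM1*, *CHGA*, *SYP* and *NCAM1* from 27.2 to 38.8). The markers of immune and endothelial cells *PTPRC*, *CD3E* and *CDH5* stayed at or below 0.38 in every human library, while the monocyte marker *CD14* reached 4.88 and the fibroblast gene *COL1A1* 11.1, both in H69 with N1ICD and doxycycline. In parental H69 the mean of *CD14* was already 4.21 and that of *COL1A1* 0.48. *REST* mRNA in the H82 libraries labelled *REST* KO was 3.99, 4.15 and 4.20 without doxycycline, against 4.42, 4.80 and 4.70 in intact cells. With doxycycline it was 4.95, 4.95 and 5.89 against 6.48, 6.13 and 6.33, which passed the threshold (difference −1.05 ± 0.22, adjusted *P* = 0.00114). *STING1* mRNA in H82 labelled *STING1* KO with doxycycline was 1.27, 1.53 and 2.04, against 1.07, 1.17 and 1.10 in intact cells. In COR-L88 with TAS1440 it was 1.16, 1.09 and 0.96 in the knockout against 2.54, 2.04 and 2.03 in intact cells, and passed (difference −1.13 ± 0.14, adjusted *P* = 0.000132). A small CRISPR edit need not lower an mRNA, so these levels do not check the knockout labels.

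On the human genome (GRCh37), *CALCA* (chr11:14988168-14993900, minus strand) lies inside the annotated span of its paralog *CALCB* (chr11:14926543-15103888, plus strand), and reads of this pair could be assigned to the wrong one. *CALCA* yields calcitonin or CGRP by splicing, which a gene-level value does not separate. Of the other genes, *SST* lies at chr3:187386700-187388182 (minus), *NPY* at chr7:24323807-24331481 (plus), *TAC1* at chr7:97361396-97369784 (plus), *VGF* at chr7:100805790-100808850 (minus), *GAL* at chr11:68451247-68458643 (plus) and *NMB* at chr15:85198360-85201794 (minus).

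Promoter windows of 300 bases, from 250 before to 50 after a RefSeq start site on GRCh38.p14, were on hand for 8 of the 10 genes, all but *CALCB* and *GAL*. The windows of *VGF* and *SST*, which turned out to be 2 of the 3 genes whose response to N1ICD differed with the *REST* KO label, are printed here because they share an unbroken cAMP response element (CRE), TGACGTCA, shown in capitals.
VGF promoter, chr7:101165520-101165819, minus strand: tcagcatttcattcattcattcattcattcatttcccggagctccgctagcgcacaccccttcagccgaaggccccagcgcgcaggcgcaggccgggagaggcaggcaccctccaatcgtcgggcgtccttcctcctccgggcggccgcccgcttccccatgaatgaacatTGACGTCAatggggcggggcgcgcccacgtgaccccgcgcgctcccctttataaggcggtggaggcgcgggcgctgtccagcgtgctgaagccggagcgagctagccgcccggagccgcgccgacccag
SST promoter, chr3:187670345-187670644, minus strand: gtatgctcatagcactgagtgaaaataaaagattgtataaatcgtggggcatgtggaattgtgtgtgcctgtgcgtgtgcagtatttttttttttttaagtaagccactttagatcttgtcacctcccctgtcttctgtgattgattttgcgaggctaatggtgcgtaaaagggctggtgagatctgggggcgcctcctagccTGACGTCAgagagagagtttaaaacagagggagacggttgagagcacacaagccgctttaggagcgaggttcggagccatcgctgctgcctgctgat
The element starts 79 bases before the start site in *VGF* and 47 bases before it in *SST*. It was found in 1.85% of 35116 windows of this kind, searched on both strands (the element reads alike on each). The shorter motif TGACG, which lies inside the full element, was in 24.6% of windows, among them those of *GRP*, *CALCA* and *TAC1* and 1 of the 2 windows of *ADCYAP1*. The RE1 consensus of REST, present in 0.0683% of windows, was in none of the members' windows, which says nothing about sites elsewhere in these genes.

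Before treatment each line carried its own set of peptides. In COR-L88 with DMSO the highest were *GRP*, at 6.77, 6.38 and 6.51, and *ADCYAP1*, the precursor of the neuropeptide PACAP, at 5.36, 5.46 and 5.50. Parental H69 had *VGF*, a granule protein cut into several bioactive peptides, at 5.50, 5.55 and 5.64 and *GRP* at 3.92, 4.11 and 4.02. Parental H524 had *NMB* at 5.07, 5.84 and 5.66, *NPY* at 5.74, 5.80 and 3.21 and *GAL*, encoding galanin, at 4.14, 5.35 and 4.44. Parental H82 was led by *NMB*, encoding the GRP-related peptide neuromedin B, at 7.15, 5.60 and 5.87 and by *CALCB*, encoding the second form of the vasodilator CGRP, at 6.36, 4.68 and 5.85. *SST*, encoding somatostatin, was listed at 0 in all parental or DMSO libraries but 2 of H82, and *TAC1*, the precursor of substance P, reached only 1.15 in H524.

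**Figure D1:**
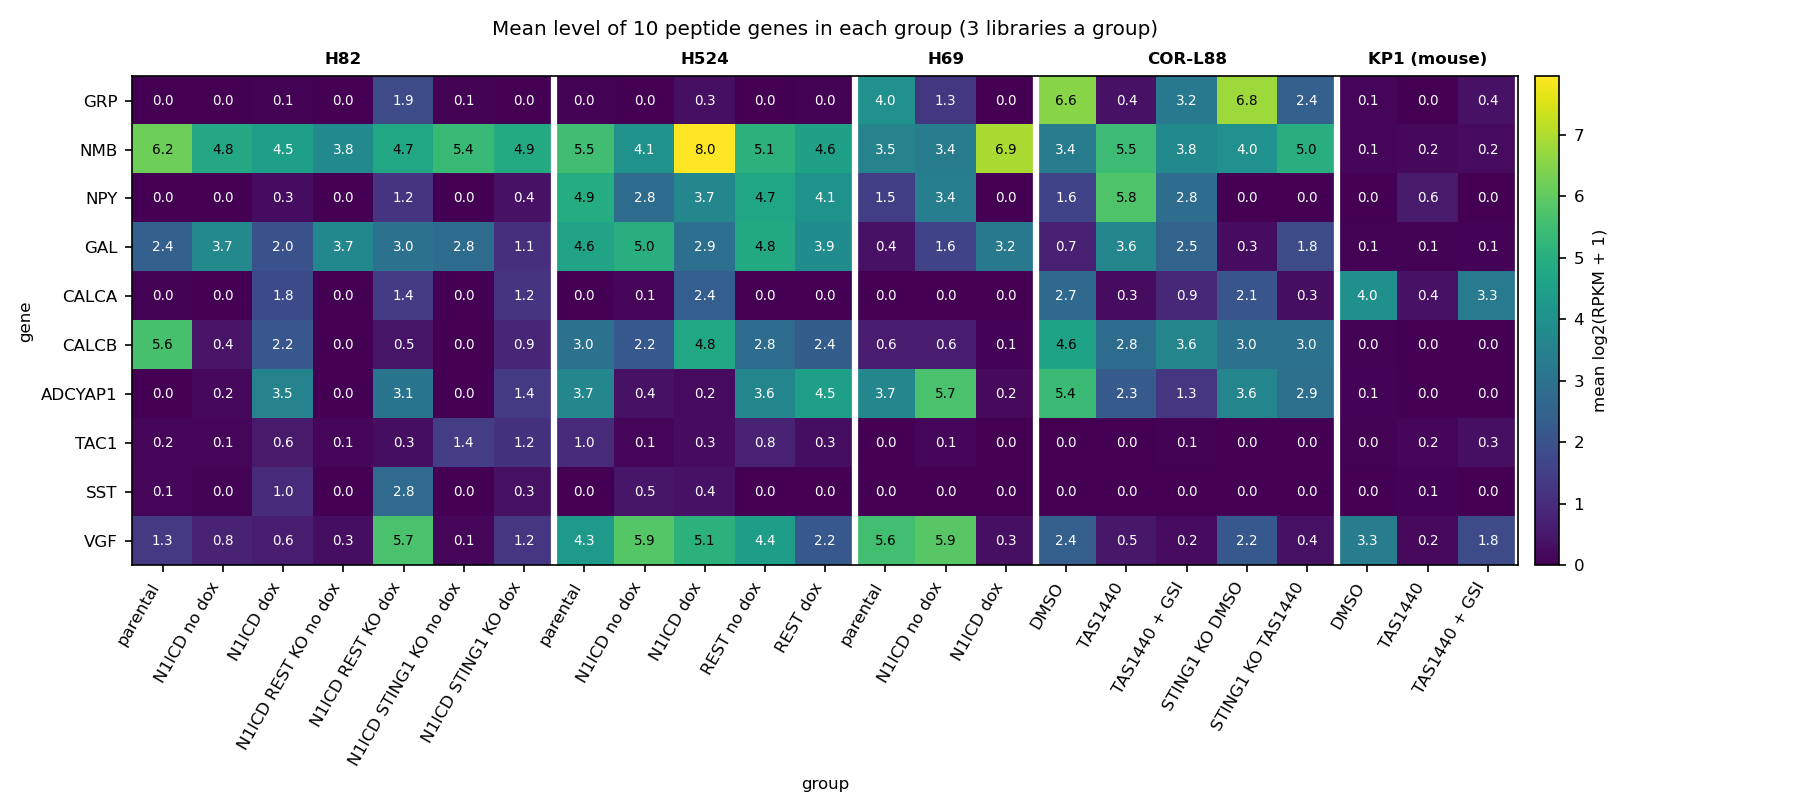
Mean level, in log2(RPKM + 1), of the 10 peptide genes (vertical) in the 23 groups of 3 libraries (horizontal), with the value printed in each cell and brighter color for higher levels. Among untreated cells *GRP* is above 4 in H69 and COR-L88 only, and *NMB* is present in every human group.

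In the order of levels, *GRP* was lower in H69 than in COR-L88 (difference −2.54 ± 0.13, adjusted *P* = 2.12e-08), and lower in H82 and H524 than in H69 (differences −4.00 ± 0.13 and −3.98 ± 0.13), those 2 lines being the ones that did not differ from each other (difference −0.02 ± 0.13, adjusted *P* = 0.925). *NMB* did not differ past the threshold between H82 and H524 or between H69 and COR-L88, and both members of the first pair were above both of the second. *NPY* was highest in H524 and listed at 0 in H82, with H69 and COR-L88 between them (difference −0.14 ± 0.58, adjusted *P* = 0.865). The *NPY* calls of H82 against H69 and COR-L88 (adjusted *P* = 0.0399 and 0.0289) were lost without any one of the 3 H82 libraries (adjusted *P* = 0.0591 to 0.0798). *CALCA* was detected in COR-L88, at 2.55, 2.80 and 2.85, and stayed at or below 0.12 in the parental cells of the other lines. *ADCYAP1* was highest in COR-L88, level in H524 and H69 (difference 0.00 ± 0.46, adjusted *P* = 0.999) and listed at 0 in H82. Of the 8 genes tested, 5 passed the threshold between H82 and H524, where 31.1% of all genes did, and 7 between H82 and H69, where 45.7% did. The count was 7 between H82 and COR-L88 (40.2% of all genes), 6 between H524 and H69 (33.5%), 8 between H524 and COR-L88 (34.6%) and 5 between H69 and COR-L88 (34.1%). Each count against COR-L88 includes *CALCA*, which passed the filter only through COR-L88. With no filter the counts of H82, H524 and H69 against COR-L88 were 7, 8 and 5 of 10 genes. The shares of all genes were then 29.9%, 25.7% and 25.2%. With the filter, the count of 7 between H82 and COR-L88 became 4 without COR-L88 DMSO library 10 or 11.

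N1ICD in H82 raised 3 peptide genes and lowered 1. *ADCYAP1* had levels of 0.14, 0.00 and 0.41 without doxycycline and 4.01, 3.75 and 2.88 with it, a difference of 3.36 ± 0.28 (adjusted *P* = 1.93e-08). *CALCA* was at 0 in each uninduced library and had levels of 1.21, 2.55 and 1.63 after induction (adjusted *P* = 2.85e-05). *CALCB* moved with it, from 0.33, 0.61 and 0.35 to 1.49, 3.06 and 1.92. Neither gene's groups overlapped. *GAL* fell from 4.52, 3.54 and 3.15 to 1.81, 2.25 and 1.97 (difference −1.72 ± 0.36, adjusted *P* = 0.000591), again without overlap. The 4 genes past the threshold are of 10 tested, against 27.1% of all 13903 genes tested. *SST* missed the size threshold, with levels of 0.11, 0.00 and 0.00 against 0.71, 1.03 and 1.22 (difference 0.95 ± 0.21, adjusted *P* = 0.00103). In bulk RNA, fewer cells that express a gene and less RNA per cell cannot be told apart, here and in every comparison that follows. In the same libraries the summed level of the 5 neuroendocrine markers was 34.2 to 35.5 without and 7.96 to 10.5 with doxycycline. That of 9 markers of other cell types went from 2.24 to 4.75 up to 11.0 to 11.6, with *COL1A1* at a mean of 2.41 without and 6.79 with doxycycline, the fibroblast gene *LUM* at 0.33 and 2.51 and *CD14* at 0.97 and 1.49, while *PTPRC* and *CD3E* stayed near 0. The part of these shifts in the peptide levels was not tested.

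**Figure D2:**
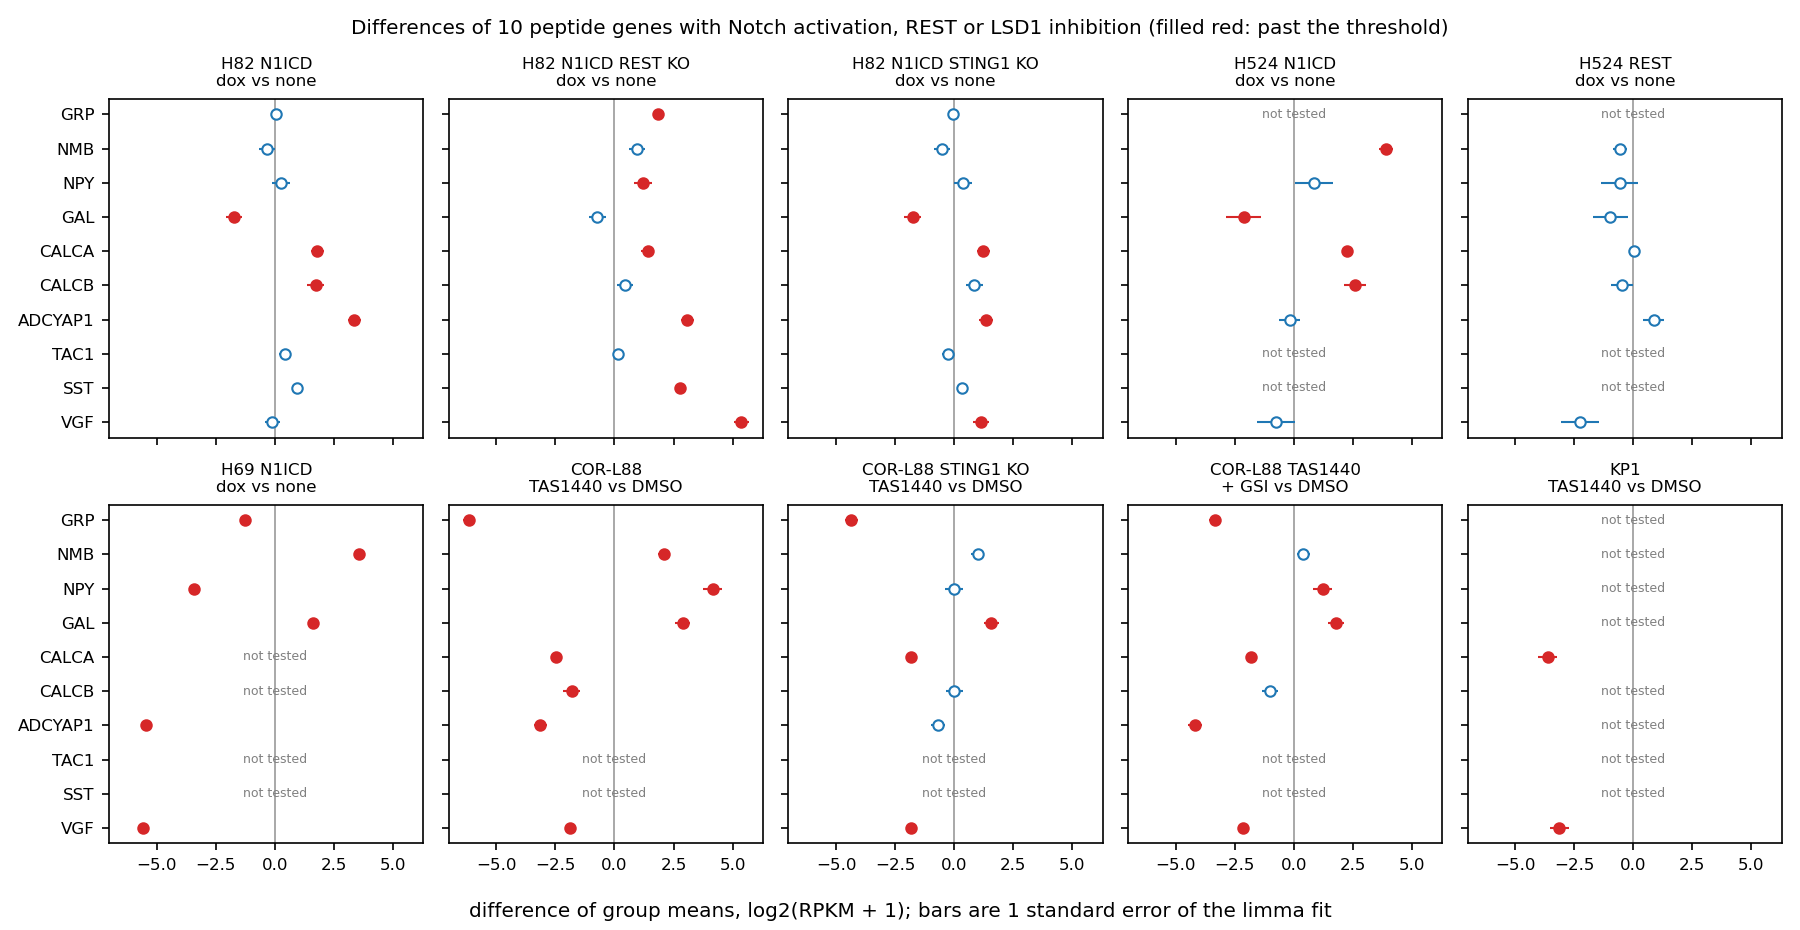
Difference between group means (horizontal, log2(RPKM + 1), bars 1 SE of the limma fit) for each peptide gene (vertical) in 10 comparisons of 3 against 3 libraries. Filled red points passed the threshold. *GAL* lies to the left in H82 and H524 and to the right in H69 and COR-L88, and *ADCYAP1* to the right in H82 and to the left in H69 and COR-L88.

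In H524, N1ICD raised *NMB* from 3.98, 4.23 and 3.94 to 7.16, 8.28 and 8.42, the highest level of any of the 10 genes in a group mean (difference 3.90 ± 0.30, adjusted *P* = 2.22e-07). *CALCA* rose from 0.23, 0.10 and 0.02 to 2.59, 2.09 and 2.47 (difference 2.26 ± 0.13, adjusted *P* = 5.84e-09 in the fit with no filter, since no other H524 library reached a level of 1) and *CALCB* from 1.56, 2.05 and 2.93 to 5.48, 4.35 and 4.51 (difference 2.60 ± 0.47, adjusted *P* = 0.000678). The groups of these 3 genes did not overlap, which was not counted over all genes. *GAL*, at 7.09, 2.98 and 5.00 without and 3.16, 2.81 and 2.75 with doxycycline, also passed the threshold (difference −2.12 ± 0.73, adjusted *P* = 0.0408), but its groups overlapped. H524 N1ICD library 22, without doxycycline, was the source of the 7.09 and had a *VGF* level of 8.50 against 5.17 and 3.94 in the other 2 libraries of its group. Without it the *GAL* difference was −1.09 with an adjusted *P* of 0.154, and the *VGF* difference changed sign, from −0.75 to 0.57, neither being past the threshold. The *GAL* call was also lost without H524 N1ICD library 24, 25, 26 or 27 (adjusted *P* = 0.0753 to 0.108). In all, 4 of the 7 genes tested passed, against 18.6% of all genes, and 2 did when library 25, 26 or 27 was left out, where *CALCA* was no longer tested and *GAL* lost its call. With no filter 3 genes passed, against 13.2% of all genes. *ADCYAP1*, which rose in H82, had levels of 0.16, 0.91 and 0.12 without and 0.16, 0.13 and 0.38 with doxycycline. The neuroendocrine markers summed to 38.3 to 39.1 without and 25.7 to 29.6 with doxycycline, and the markers of other cells to 4.20 to 5.92 and 11.1 to 13.0, with *COL1A1* at a mean of 5.29 and *CD14* at 4.15 with doxycycline. Without it *COL1A1* had a mean of 0.87 and *CD14* of 3.29. The part of these marker shifts in the peptide levels was not tested.

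In H69 all 6 genes tested passed the threshold, where 41.8% of all genes did. *VGF* fell from 5.56, 6.21 and 5.93 to 0.28, 0.48 and 0.25 (difference −5.56 ± 0.15, adjusted *P* = 4.63e-09), and *ADCYAP1* from 5.74, 5.35 and 5.93 to 0.00, 0.20 and 0.38 (difference −5.48 ± 0.21, adjusted *P* = 3.07e-08). *NPY*, encoding neuropeptide Y, went from 3.21, 3.76 and 3.25 to 0 in all 3 libraries (adjusted *P* = 3.65e-07), and *GRP* from 1.30, 0.99 and 1.56 to 0.05, 0.04 and 0.00 (adjusted *P* = 2.16e-05). The other 2 genes rose. *NMB* went from 3.82, 3.18 and 3.09 to 7.06, 6.74 and 7.00 (difference 3.57 ± 0.20, adjusted *P* = 3.32e-07) and *GAL* from 1.43, 1.85 and 1.53 to 3.00, 3.38 and 3.27 (difference 1.61 ± 0.14, adjusted *P* = 5.13e-06). No library of a doxycycline group fell within the range of its control for any of the 6 genes, and the share of all genes was not computed. *CALCA*, which rose in the other 2 lines, was listed at 0 in all 9 H69 libraries. The summed level of the neuroendocrine markers was 35.6 to 36.8 without and 5.29 to 5.68 with doxycycline, and that of the markers of other cells 4.70 to 5.18 and 25.0 to 25.1, with *COL1A1* at a mean of 11.0 and *CD14* at 4.79 with doxycycline. Without it *COL1A1* had a mean of 0.91 and *CD14* of 3.28.

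The difference between the responses of the 3 lines was tested in a single fit of the 18 N1ICD libraries. *NOTCH1* itself was not induced to the same level, with 4.75, 4.26 and 5.56 in H82 with doxycycline (a mean of 30.1 RPKM), 7.58, 8.29 and 8.31 in H524 (273 RPKM) and 8.07, 7.93 and 7.97 in H69 (254 RPKM). The response of *NOTCH1* was 3.91 ± 0.41 higher in H69 than in H82 and 3.17 ± 0.41 higher in H524 than in H82, so that in these contrasts line and level of induction cannot be told apart. In contrasts with H69 the time with doxycycline may differ as well. *ADCYAP1* had the most extreme value of the 10 genes, a response lower in H69 than in H82 (difference of responses −8.84 ± 0.38, adjusted *P* = 4.42e-11), and its response was also lower in H69 than in H524 (−5.30 ± 0.38). Without doxycycline its mean was 0.19 in H82, 0.40 in H524 and 5.67 in H69, so only in H69 was there room for a fall of this size. *GAL* responded 3.34 ± 0.94 higher in H69 than in H82 (adjusted *P* = 0.00649) and 3.73 ± 0.94 higher than in H524 (adjusted *P* = 0.00375). The response of *NMB* in H82 was lower than in H69 by 3.90 ± 0.46 and lower than in H524 by 4.24 ± 0.46, while H69 and H524 differed by −0.33 ± 0.46 (adjusted *P* = 0.575). Of the 8 genes tested, 7 differed between H69 and H82 (44.8% of all genes), 6 between H69 and H524 (38%) and 3 between H524 and H82 (18.7%). The last of these includes *SST* (−1.04, adjusted *P* = 0.0172), whose call was lost in a fit of only the compared groups (adjusted *P* = 0.0618) and without H524 library 27 (−0.93, adjusted *P* = 0.0502). *SST* had passed the filter through the H82 doxycycline group. With no filter 3 of 10 genes differed between H524 and H82, against 13.8% of all genes.

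Cells carrying the uninduced vector already differed from their parental line in some peptides. *CALCB* in H82 was 6.36, 4.68 and 5.85 in parental cells and 0.33, 0.61 and 0.35 in N1ICD cells without doxycycline (difference −5.20 ± 0.34, adjusted *P* = 6.28e-09), so its level after induction remained below that of the parental cells. *NMB* was also lower and *GAL* higher in these cells, 3 of 10 genes in all against 6.41% of all genes. The *GAL* call was lost without H82 parental library 2 (difference 0.90, adjusted *P* = 0.104) or N1ICD library 4 (0.91, 0.0616), and the *NMB* call without parental library 1 (−0.92, 0.0309). In H69, *GRP* was 3.92, 4.11 and 4.02 in parental cells and 1.30, 0.99 and 1.56 in uninduced N1ICD cells (difference −2.73 ± 0.13, adjusted *P* = 1.24e-05 with no filter), while *NPY*, *GAL* and *ADCYAP1* were 1.20 to 2.00 higher. These were 4 of 6 genes, against 5.27% of all genes, a count in which *GRP* had passed the filter through the parental group. With no filter 4 of 8 genes passed, against 3.81%. In the same 2 groups the mean level of *NEUROD1*, a transcription factor that defines a class of SCLC, was 4.37 in the parental and 9.39 in the uninduced N1ICD cells. In H524, *ADCYAP1* fell from 5.01, 3.48 and 2.54 to 0.16, 0.91 and 0.12 and *NMB* was lower too (difference −1.47 ± 0.30), 2 of 7 genes against 12.1% of all genes.

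In H82, 3 peptide genes responded to doxycycline differently in libraries labelled *REST* KO and in intact cells. *NOTCH1* differed between the same libraries: with doxycycline it was 8.75, 9.15 and 10.7 in the knockout (a mean of 901 RPKM) and 4.75, 4.26 and 5.56 in intact cells (30.1 RPKM), a difference of 4.69 ± 0.44 (adjusted *P* = 2.06e-07), and without doxycycline 1.28, 1.21 and 1.47 against 1.45, 0.88 and 1.15. The *REST* KO label and the level of induction therefore cannot be told apart in what follows. *VGF* had levels of 0.39, 0.30 and 0.23 without and 6.04, 5.65 and 5.33 with doxycycline in the libraries labelled *REST* KO, while in intact cells it was 0.64, 0.71 and 0.89 without and 0.94, 0.44 and 0.56 with doxycycline. Only the doxycycline group of the knockout stood apart. *SST* was listed at 0 in the uninduced knockout libraries and at 3.20, 2.97 and 2.19 after induction, above the 0.71, 1.03 and 1.22 of intact cells with doxycycline. *GRP* likewise went from 0 in all 3 to 1.78, 2.08 and 1.69, and stayed at or below 0.10 in the 6 intact N1ICD libraries. With doxycycline, the knockout differed from intact cells by 5.02 ± 0.32 for *VGF* (adjusted *P* = 1.73e-09), 1.80 ± 0.21 for *SST* (adjusted *P* = 5.44e-06 with no filter) and 1.80 ± 0.10 for *GRP* (adjusted *P* = 1.69e-11 with no filter). *GRP* reached a level of 1 in no other H82 library, and *SST* in 2 others, so both entered the filtered test through this group. The difference between the 2 responses was 5.47 ± 0.45 for *VGF*, 1.84 ± 0.29 for *SST* and 1.80 ± 0.15 for *GRP*. In the fit with no filter these 3 of 10 genes passed, against 8.84% of all genes, and with the filter the same 3, against 12.9%. *VGF* and *SST* are the pair whose promoter windows hold the CRE printed above, while the window of *GRP* holds no full CRE. A part of the element in these responses was not tested.

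**Figure D3:**
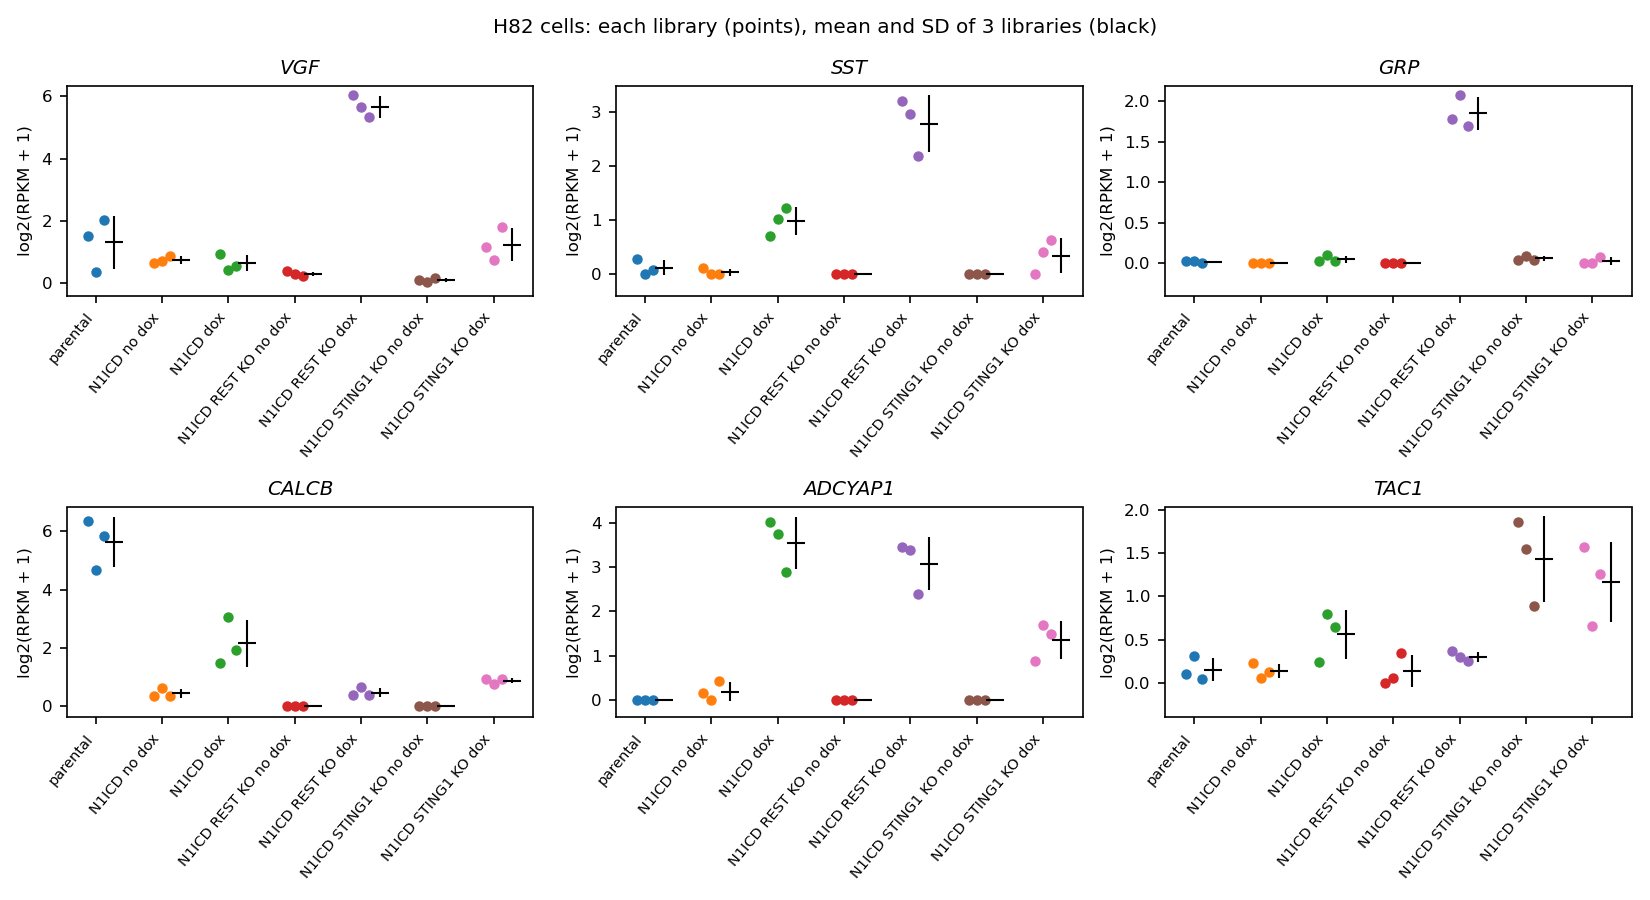
Levels of 6 peptide genes in H82, in log2(RPKM + 1) on the vertical axis, for each library of the 7 groups on the horizontal axis (colored points), with the mean and SD of 3 libraries in black. *VGF*, *SST* and *GRP* are highest in the libraries labelled *REST* KO with doxycycline, *CALCB* in parental cells and *TAC1* in the libraries labelled *STING1* KO.

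Within the libraries labelled *REST* KO, 6 of 10 genes rose with doxycycline and none fell past the threshold, against 29.9% of all genes, a count in which *GRP*, *SST* and *NPY* had passed the filter through the high group. With no filter 6 of 10 passed as well, against 21.5%. Beside *VGF*, *SST* and *GRP* these were *ADCYAP1*, from 0 in all 3 to 3.45, 3.40 and 2.38, *CALCA*, from 0 in all 3 to 1.79, 1.73 and 0.72, and *NPY*, from 0 in all 3 to 2.02, 0.00 and 1.59, whose groups overlapped. The rise of *ADCYAP1* and *CALCA* was near that in intact cells (differences between the responses −0.29 ± 0.40, adjusted *P* = 0.676, and −0.38 ± 0.39, adjusted *P* = 0.55). With doxycycline, *CALCB* was lower in the knockout, at 0.37, 0.63 and 0.36 against 1.49, 3.06 and 1.92, so that 4 of 10 genes differed, against 17.6% of all genes (4 of 10 and 12.5% with no filter). Without doxycycline 1 of 10 genes did, against 6.24% of all genes: *NMB*, at 3.89, 3.56 and 3.94 against 5.14, 4.64 and 4.67 (difference −1.02 ± 0.33, adjusted *P* = 0.0418). That call was lost when any of the 6 libraries was left out (adjusted *P* = 0.0607 to 0.138). *NEUROD1* still fell with doxycycline in the knockout, from a mean of 14.0 to 6.02, while *CHGA* was 5.17 and *SYP* 5.17 against 0.41 and 0.99 in intact cells with doxycycline. Markers of other cells summed to 0.55 to 0.91 without and 10.5 to 12.7 with doxycycline in the knockout.

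*REST* itself, induced in H524 from 5.05, 5.03 and 4.90 to 6.87, 10.7 and 9.43, moved none of the 7 peptide genes past the threshold in limma, against 1.87% of all genes, and 1 had an unadjusted *P* under 0.05. That gene was *VGF*, at 3.99, 4.83 and 4.52 without and 2.60, 1.72 and 2.26 with doxycycline, groups that did not overlap (difference −2.25 ± 0.80, adjusted *P* = 0.154). In a fit of these 2 groups alone, which takes the spread from these 6 libraries only, *VGF* passed (adjusted *P* = 0.02). *ADCYAP1* was 3.86, 3.39 and 3.66 without and 4.85, 4.23 and 4.41 with doxycycline, which did not pass (difference 0.86 ± 0.45, adjusted *P* = 0.354). The response to N1ICD exceeded that to *REST* by 4.46 ± 0.42 for *NMB*, 3.07 ± 0.66 for *CALCB* and 2.26 ± 0.18 for *CALCA*, 3 of 7 genes against 15.6% of all genes (3 of 10 and 10.7% with no filter). Compared with doxycycline in both, N1ICD and *REST* cells differed in 5 of 7 genes, against 23.8% of all genes, with *ADCYAP1* lower (difference −4.27 ± 0.45) and *VGF* higher (2.93 ± 0.80) in N1ICD cells. That count includes *CALCA*, which entered the filtered test through the N1ICD doxycycline group. With no filter 5 of 10 genes passed, against 16.9% of all genes. Uninduced *REST* cells and parental cells differed in none of the 7 genes in limma, with no unadjusted *P* under 0.05, against 0.264% of all genes.

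In the H82 libraries labelled *STING1* KO, *ADCYAP1* went from 0 in all 3 libraries to 0.88, 1.70 and 1.49 with doxycycline, below the 4.01, 3.75 and 2.88 of intact cells, without overlap. *NOTCH1* was higher in the same knockout libraries, at 5.97, 7.41 and 7.48 against 4.75, 4.26 and 5.56 in intact cells with doxycycline (difference 2.10 ± 0.44, adjusted *P* = 0.00113). The difference between the 2 responses, −2.01 ± 0.40 (adjusted *P* = 0.0036), made it the only gene of 10 past the threshold in that test, against 7.12% of all genes, and it missed it with a pseudocount of 0.1 (adjusted *P* = 0.133). *CALCA* rose to 1.21, 1.03 and 1.47, *VGF* from 0.12, 0.04 and 0.19 to 1.17, 0.75 and 1.82, and *GAL* fell from 3.10, 2.44 and 2.92 to 0.79, 1.14 and 1.29. With *ADCYAP1* these were 4 of 10 genes, against 20.2% of all genes. The *VGF* call was lost without library 60 (difference 0.85, adjusted *P* = 0.0633). With doxycycline the knockout was lower than intact cells in *ADCYAP1* (difference −2.19 ± 0.28) and *CALCB* (−1.29 ± 0.34), 2 of 10 genes against 16.5% of all genes, and the *CALCB* call was lost without H82 N1ICD library 8 (difference −0.84, adjusted *P* = 0.0523). Without doxycycline *TAC1* was higher in the knockout, at 1.86, 1.55 and 0.88 against 0.23, 0.06 and 0.13, its highest levels in the study. In H82 *TAC1* reached a level of 1 in 4 libraries, all labelled *STING1* KO, and so entered the filtered test through them. With no filter its difference of 1.29 had an adjusted *P* of 0.000642, and it was the 1 of 10 genes past the threshold, against 9.91% of all genes (14.4% with the filter).

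LSD1 inhibition in COR-L88 moved all 8 genes tested past the threshold, 5 down and 3 up, where 22.8% of all genes passed. *GRP* fell from 6.77, 6.38 and 6.51 with DMSO to 0.26, 0.47 and 0.49 with TAS1440 (difference −6.15 ± 0.26, adjusted *P* = 1.37e-09). *ADCYAP1* fell from 5.36, 5.46 and 5.50 to 2.42, 2.08 and 2.39, *CALCA* from 2.55, 2.80 and 2.85 to 0.24, 0.24 and 0.31, *CALCB* from 4.24, 4.71 and 4.94 to 3.20, 2.56 and 2.69 and *VGF* from 2.89, 2.38 and 1.93 to 0.70, 0.53 and 0.31. In the other direction, *NPY* rose from 1.69, 2.26 and 0.90 to 5.65, 6.24 and 5.41 (difference 4.15 ± 0.39, adjusted *P* = 1.12e-06), *GAL* from 1.27, 0.51 and 0.45 to 4.36, 3.50 and 3.05 (difference 2.89 ± 0.32, adjusted *P* = 5.05e-06) and *NMB* from 3.80, 2.95 and 3.30 to 5.30, 5.47 and 5.61 (difference 2.11 ± 0.26, adjusted *P* = 1.27e-05). The groups of the 8 genes did not overlap, a count with no share over all genes to set beside it. So the pair of bombesin-like peptides moved apart, *GRP* down and *NMB* up, as they also did in H69. Neuroendocrine markers summed to 27.2 to 27.7 with DMSO and 12.1 to 13.4 with TAS1440, and markers of other cells to 2.05 to 2.59 and 2.47 to 3.02.

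**Figure D4:**
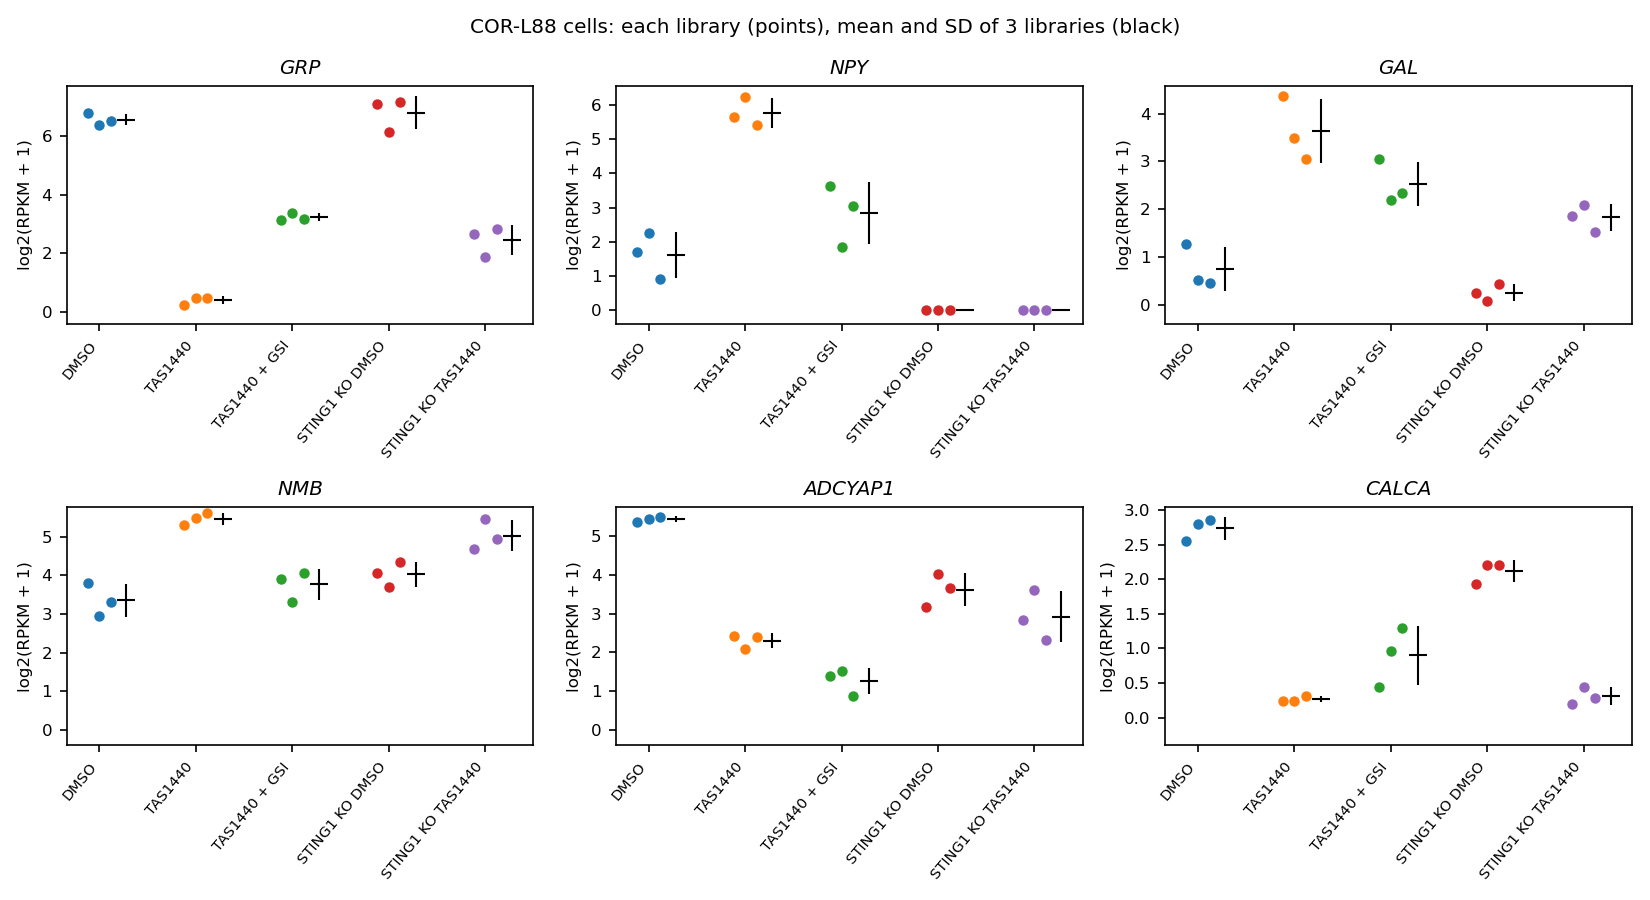
Levels of 6 peptide genes in COR-L88, in log2(RPKM + 1) on the vertical axis, for each library of the 5 groups on the horizontal axis (colored points), with the mean and SD of 3 libraries in black. *GRP* with TAS1440 lies below 0.5 in intact cells, between 3.13 and 3.38 with GSI added and between 1.86 and 2.82 in *STING1* KO cells, and *NPY* is listed at 0 in all *STING1* KO libraries.

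Adding GSI to TAS1440 separated the genes. *GRP* was 3.13, 3.38 and 3.17 with both drugs, between the other 2 groups, so it was lower with TAS1440 alone than with both (difference −2.83 ± 0.26, adjusted *P* = 4.35e-06) and still below DMSO with both (−3.32 ± 0.26, adjusted *P* = 7.96e-07). *NPY* (3.62, 1.85 and 3.05 with both drugs) and *NMB* (3.91, 3.31 and 4.07) were lower with GSI than with TAS1440 alone, by 2.93 ± 0.39 and 1.70 ± 0.26. *ADCYAP1* went the other way: at 1.38, 1.52 and 0.87 with both drugs it was further from DMSO than with TAS1440 alone. *VGF*, at 0.25, 0.27 and 0.22, remained as low with GSI as without (difference 0.27 ± 0.19, adjusted *P* = 0.269). Between TAS1440 with and without GSI, 5 of 8 genes passed, against 14.7% of all genes. Of these, *GAL* was lost without COR-L88 TAS1440 library 13 (difference 0.74, adjusted *P* = 0.0591) or TAS1440 plus GSI library 17 (0.94, 0.056), and *ADCYAP1*, at 1.04 ± 0.29, fell under the size threshold without TAS1440 library 13 (0.98) or 15 (0.99) or TAS1440 plus GSI library 18 (0.85). Between TAS1440 plus GSI and DMSO, 6 of 8 passed, against 9.02% of all genes, among them *NPY*, whose groups overlapped and whose call was lost without DMSO library 10 or 12 or TAS1440 plus GSI library 16 or 18 (adjusted *P* = 0.0687 to 0.161). *INSM1*, a neuroendocrine transcription factor, had means of 6.91 with DMSO, 2.12 with TAS1440 and 5.75 with both drugs. *NOTCH1* was 1.99, 2.79 and 2.26 with TAS1440 and 6.73, 6.71 and 6.75 with both drugs.

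In COR-L88 labelled *STING1* KO, *GRP* fell from 7.07, 6.14 and 7.14 with DMSO to 2.64, 1.86 and 2.82 with TAS1440 (difference −4.34 ± 0.26, adjusted *P* = 3.01e-08), which left it above intact cells with TAS1440 in every library. In the same groups *NOTCH1* was 4.58, 2.82 and 4.93 in the knockout with TAS1440 and 1.99, 2.79 and 2.26 in intact cells (difference 1.76 ± 0.39, adjusted *P* = 0.00524). *NPY* was listed at 0 in all 6 knockout libraries. *CALCA* and *VGF* fell by 1.81 ± 0.18 and 1.84 ± 0.19, near their fall in intact cells, and *GAL* rose from 0.25, 0.07 and 0.44 to 1.86, 2.10 and 1.53. These were 4 of 8 genes, against 16% of all genes. *ADCYAP1* was 3.17, 4.03 and 3.65 with DMSO and 2.84, 3.62 and 2.32 with TAS1440, overlapping groups that did not differ past the threshold (difference −0.69 ± 0.29, adjusted *P* = 0.0676). The 2 responses to TAS1440 differed in 4 of 8 genes, against 4.23% of all genes: *GRP* by 1.80 ± 0.37 (adjusted *P* = 0.0129), *NPY* by −4.15 ± 0.55 (adjusted *P* = 0.00149), *ADCYAP1* by 2.45 ± 0.41 (adjusted *P* = 0.0045) and *CALCB* by 1.81 ± 0.51 (adjusted *P* = 0.0449). The call for *CALCB* was lost without any one of 8 of the 12 libraries (11, 12, 14, 15, 40, 42, 43 and 44; adjusted *P* = 0.0647 to 0.105). With TAS1440 the knockout differed from intact cells in *GRP*, *NPY* and *GAL*, 3 of 8 genes against 6.53% of all genes. With DMSO it was lower in *NPY*, *CALCB* and *ADCYAP1*, 3 of 8 genes against 1.47% of all genes, and only *ADCYAP1* (difference −1.82 ± 0.29, adjusted *P* = 0.00297) passed without library 11, 40 or 42. The *NPY* difference in that comparison (−1.62) was lost without DMSO library 10 or 11 or knockout library 40 or 42 (adjusted *P* = 0.0886 to 0.119), and that of *CALCB* without DMSO library 11 or 12 or knockout library 40 or 42 (0.0657 to 0.0864).

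In mouse KP1 cells 2 of the 10 genes were tested, the other 8 staying at or below 1.35. *Calca* fell from 4.24, 4.27 and 3.48 with DMSO to 0.16, 0.19 and 0.78 with TAS1440 (difference −3.62 ± 0.40, adjusted *P* = 0.000114), and was 2.61, 2.97 and 4.20 with TAS1440 and GSI. *Vgf* fell from 3.62, 3.63 and 2.76 to 0.05, 0.25 and 0.29 (difference −3.14 ± 0.40, adjusted *P* = 0.000262) and was 1.02, 1.74 and 2.76 with GSI. For both genes the TAS1440 group lay below the other groups without overlap. Both passed between TAS1440 and DMSO, against 18.8% of all genes, and between TAS1440 and TAS1440 plus GSI, against 16.5%. Between TAS1440 plus GSI and DMSO neither passed in limma, against 1.21% of all genes, and 1 had an unadjusted *P* under 0.05. *Vgf* differed there by −1.50 ± 0.40 (adjusted *P* = 0.122), and by −1.96 (adjusted *P* = 0.0263) without library 9. The human and mouse orthologs thus fell alike with LSD1 inhibition in COR-L88 and KP1, while with GSI added *VGF* was 0.22 to 0.27 in COR-L88 and *Vgf* 1.02 to 2.76 in KP1. The 2 tables were normalized apart and different inhibitors were used, so that no test was made between them. *Insm1* had a mean of 7.21 with DMSO, 2.35 with TAS1440 and 7.91 with GSI, and the 3 TAS1440 libraries were uneven, with neuroendocrine markers summing from 0.58 to 9.28 (16.6 to 19.0 with DMSO). The 7 markers of other cells summed to 0.53 to 1.28 with DMSO, 2.25 to 7.78 with TAS1440 and 0.62 to 3.64 with both drugs, with *Cd14* at 0.00, 1.28 and 0.10 and *Dcn*, a fibroblast gene, at 0.01, 1.66 and 0.18. The part of these shifts in the peptide levels was not tested.

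Over the activation comparisons of intact cells (N1ICD in H82, H524 and H69 and TAS1440 in COR-L88), the 10 genes had 31 tests, of which 11 were called higher and 11 lower. Over all genes 11.4 to 21.4% were called higher and 7.19 to 20.4% lower in these 4 comparisons. The calls include *CALCA* in H524, which entered the filtered test through the doxycycline group, so the tally supports nothing about the members. They also include *GAL* in H524, lost with no filter (adjusted *P* = 0.062 in limma). With no filter 4 of 10 genes passed in H82, 3 of 10 in H524, 6 of 8 in H69 and 8 of 9 in COR-L88. The shares of all genes were then 19.1%, 13.2%, 30.9% and 16.5%. *NMB* was called higher in 3 of 4 and lower in none, *VGF* lower in 2 of 4 and higher in none and *GRP* lower in 2 of 3, while *GAL*, *NPY*, *CALCA*, *CALCB* and *ADCYAP1* had calls in both directions. A gene with a control mean below 1 could not be called lower, so these tallies depend on the starting levels. Among others this held in H82 for *GRP* (a mean of 0), *SST* (0.04), *TAC1* (0.14) and *VGF* (0.75). Across the 20 human groups, Pearson's *r* between the means of 2 of the 10 genes ran over 45 pairs from −0.71 (*GRP* and *GAL*) to 0.56 (*GRP* and *CALCA*), and was −0.51 for *NMB* and *ADCYAP1* and for *CALCA* and *GAL* and 0.42 for the neighbors *CALCA* and *CALCB*. Groups of a line share cells and vectors, so these are descriptions. The genes whose group means were most like each member's, out of 15888, were *CER1* for *GRP* (*r* = 0.95), *ZSCAN5B* for *SST* (0.98), *SCRT1* for *VGF* (0.86), *SLC27A1* for *GAL* (0.89), *ABCG2* for *NPY* (0.83), *ODF2L* for *ADCYAP1* (0.84), *WDR45* for *CALCB* (0.85), *RABL2A* for *CALCA* (0.81), *VPS13D* for *NMB* (0.79) and *IGIP* for *TAC1* (0.85). The value of *SST* rests largely on H82 labelled *REST* KO with doxycycline, at a mean of 2.79 against at most 0.98 in any other group.

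The machinery that makes and stores peptides fell in most of these comparisons. Whether genes of this list passed the filter only through a high group was not checked, so its counts are descriptions. Of 15 genes for prohormone processing and granules, 13 of 14 tested fell and none rose with N1ICD in H69 (median difference −4.45, against 0.08 over all genes, of which 20.4% fell and 21.4% rose), among them the convertases *PCSK2* (−8.33) and *PCSK1* (−7.71) and the granin *SCG3* (−8.24). In COR-L88 with TAS1440, 9 of 15 fell and 2 rose (median −2.37 against 0.01, with 7.46% of all genes lower and 15.3% higher), with *DBH*, which makes noradrenaline, at −6.35 and the granin *SCG2* at −4.85. In H524 with N1ICD 7 of 13 fell and 2 rose (median −1.16 against −0.02, with 7.19% of all genes lower and 11.4% higher). In KP1 with TAS1440 6 of 9 fell and none rose (median −2.43 against 0.02, with 9.7% of all genes lower), with *Chga*, another granin, at −5.54. In H82 with N1ICD 8 of 14 fell and 2 rose (median −2.90 against 0.00, with 12.4% of all genes lower and 14.7% higher), but *PCSK1* was 5.99 ± 0.43 higher, going from a mean of 0.82 to 6.81. The mean of *PCSK1* was also higher with doxycycline in H524 N1ICD cells (5.31 to 7.82) and in H82 labelled *STING1* KO (0.00 to 5.09). In COR-L88 it fell with TAS1440, from 7.85 to 3.20, as it did with N1ICD in H69. With doxycycline in H82, libraries labelled *REST* KO were higher than intact cells in 8 of 14 and lower in 1 (9.44% of all genes being higher and 8.21% lower), with the granule membrane protein *PTPRN* 6.06, *CHGA* 4.76 and *CHGB* 4.61 higher. Within the libraries labelled *REST* KO, doxycycline went with a rise of 4 of the 14 and a fall of 6 (median −0.26 against −0.01, with 16.2% of all genes higher and 13.7% lower). There *CHGA* went from a mean of 6.95 to 5.17 and *CHGB* from 6.58 to 5.35, while *PTPRN* was at 8.48 and 8.70 and *PCSK1* went from 0.56 to 8.76.

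Other peptide precursors, from a list of 55 genes of which 52 were in the human table, moved in both directions, and the genes named here are those with the largest differences. Which of them passed the filter only through a high group was not checked. The counts beside the shares of all genes therefore support nothing about the list. In H82 with N1ICD 6 of 19 tested rose and 4 fell (14.7% and 12.4% of all genes), with *NPPB*, encoding a natriuretic peptide, from a mean of 1.87 to 8.31. In H82 labelled *REST* KO, 10 rose and 4 fell (16.2% and 13.7% of all genes), with *KISS1* (kisspeptin) going from 0.00 to 5.42 and *PENK* (enkephalins) from 0.01 to 4.30. In H69 with N1ICD 4 of 17 rose and 9 fell (21.4% and 20.4% of all genes), with *NTS*, encoding neurotensin, from 7.93 to 0.83 and *UCN3*, encoding a urocortin, from 5.88 to 0.00. In COR-L88 with TAS1440 8 of 18 rose and 4 fell (15.3% and 7.46% of all genes), with *GHRH* from 5.36 to 0.75 and the endothelin *EDN2* from 0.25 to 4.58. In H524 with N1ICD 3 of 18 rose and 5 fell (11.4% and 7.19% of all genes). In KP1 2 of 6 rose and 1 fell (9.09% and 9.7% of all genes), *Cartpt* going from 6.82 to 0.35.

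Receptors for the 10 peptides were mostly too low to test. Which of those tested passed the filter only through a high group was not checked, so counts of them support nothing about the list. With N1ICD in H69, 9 of 25 were tested and 3 rose and 3 fell (21.4% and 20.4% of all genes): *NPY1R*, a receptor of neuropeptide Y, was listed at 0 in the control group and had a mean of 4.88 with doxycycline, the somatostatin receptor *SSTR1* fell by 3.34 and *ADCYAP1R1*, the receptor of PACAP, by 3.26. *NPY1R* was thus high in the group in which *NPY* was listed at 0. In H82, *RAMP1*, which makes the CGRP receptor together with *CALCRL*, fell by 4.03 with N1ICD while *CALCA* and *CALCB* rose, and *ADCYAP1R1* fell by 2.19 while *ADCYAP1* rose. In H524 *RAMP1* fell by 2.60 and *ADCYAP1R1* rose by 2.16. In COR-L88 with TAS1440, *RAMP1* rose by 1.76 as *CALCA* and *CALCB* fell.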

How the data were processed

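PolyA RNA of 69 libraries was sequenced in pairs from stranded libraries. The authors trimmed reads with Cutadapt, aligned them with STAR, quantified genes with RSEM and formed TMM-scaled RPKM values with edgeR. The deposited values are log2(RPKM + 1), in a human table (hg19) and a KP1 table that was normalized apart. The processing notes also name mm10. Tool versions, annotation and the strand setting are not given in the sources used here, and without read counts depth is known only relative to other libraries.

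Groups followed the sample titles. They were compared with limma 3.58.1 (R 4.3.3) with a variance trend, 1 mean for each group of a line, on genes with 3 or more libraries of the line at a level of 1 or above. Tests were two-sided, with *P* values adjusted over every gene tested by the Benjamini-Hochberg method. A call needed an adjusted *P* below 0.05 together with a difference of 1 or more in size. The script was tested on simulated data. Named beside the members are, of each gene list, up to 3 genes past the threshold with the largest differences, marker and induced or targeted genes, and the gene most correlated with each member over group means. The members and lists were chosen with earlier results of these data known. Alternatives were a pseudocount of 0.1, no filter, quantile or median scaling, no trend, only the compared groups, and leaving out each library. Promoter windows were from RefSeq, positions from GENCODE. Python 3.11.15, numpy 2.4.6, pandas 2.3.3 and matplotlib 3.10.9 were used. A neuroendocrine marker is not reported here and was left out of the summed levels.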

Additional observations from a re-analysis of the deposited data

Results flagged for a closer look

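In 27 tests the response of a peptide gene differed, in 24 between 2 settings of the same treatment and in 3 between N1ICD and *REST*, by a difference of responses past the threshold on the log2(RPKM + 1) scale.

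In H82, the response to doxycycline in libraries labelled *REST* KO exceeded that in intact cells by 5.47 for *VGF*, 1.84 for *SST* and 1.80 for *GRP*. With the *STING1* KO label it was lower for *ADCYAP1* (−2.01). In H524, the response to N1ICD exceeded that to *REST* by 4.46 for *NMB*, 3.07 for *CALCB* and 2.26 for *CALCA*. In COR-L88, the response to TAS1440 with the *STING1* KO label minus that without was −4.15 for *NPY*, 2.45 for *ADCYAP1*, 1.81 for *CALCB* and 1.80 for *GRP*. The value of *NPY* comes from a gene listed at 0 in all 6 knockout libraries.

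Between lines, the response to N1ICD in H69 minus that in H82 was −8.84 for *ADCYAP1*, −5.46 for *VGF*, −3.68 for *NPY*, −2.27 for *CALCB*, −1.79 for *CALCA*, 3.34 for *GAL* and 3.90 for *NMB*. In H69 minus H524 it was −5.30 for *ADCYAP1*, −4.82 for *VGF*, −4.26 for *NPY*, −3.15 for *CALCB*, −2.26 for *CALCA* and 3.73 for *GAL*. In H524 minus H82 it was 4.24 for *NMB*, −3.54 for *ADCYAP1* and −1.04 for *SST*. The value of *SST* missed the threshold in a fit of only the compared groups (adjusted *P* = 0.0618) and without H524 library 27 (−0.93, adjusted *P* = 0.0502). *NOTCH1* was induced to a lower level in H82 than in the other 2 lines, and to a higher one in H82 labelled *REST* KO than in intact H82. *CALCA* was listed at 0 in every H69 library. Starting levels differed too. Without doxycycline *ADCYAP1*, *VGF* and *NPY* had means of 0.19, 0.75 and 0 in H82 against 5.67, 5.90 and 3.41 in H69. In H82 they therefore could not fall as they did in H69. *ADCYAP1* began at 0.40 in H524 and *CALCB* at 0.63 in H69, which left little room to fall there. Groups of 3 libraries are too small for a test of single outlying libraries.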

How the results depend on the processing

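Over the alternatives, 2426 of 2560 differences of single genes kept their direction and their side of the threshold, 83 were no longer past it, 44 newly passed it and 7 changed sign. A difference is missing from these counts wherever leaving out a library took its gene out of the test. This was so for *CALCA* in H524 when a library of the N1ICD doxycycline group was left out. The 83 therefore understate how many calls depend on a single library. The fit of N1ICD responses between lines and the count of calls that rest on the filter were added after seeing the data. No paired analysis was possible because the library numbers in the titles run through each table and no groups compared share a number.

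With a pseudocount of 0.1, the genes past the threshold went from 1 to 2 in H82 without doxycycline (*REST* KO against intact), from 2 to 4 with doxycycline (*STING1* KO against intact) and from 1 to 3 without it. The first of these was 0 without the filter and 0 with quantile scaling. Fits of only the compared groups gave 1 in place of 3 for uninduced N1ICD against parental H82, 2 in place of 1 for the response with the *STING1* KO label in H82, 1 in place of 0 for *REST* in H524 and 1 in place of 3 for *STING1* KO against intact COR-L88 with DMSO. TAS1440 against TAS1440 plus GSI in COR-L88 gave 3 in place of 5 with quantile scaling and 3 with median scaling.

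With each library left out in turn, the counts were 0 to 0 for *REST* KO against intact H82 without doxycycline, 1 to 2 for *STING1* KO against intact H82 with and 1 to 2 without doxycycline, 2 to 4 for N1ICD in H524, 3 to 6 for TAS1440 against TAS1440 plus GSI and 1 to 3 for *STING1* KO against intact COR-L88 with DMSO, 0 to 1 for TAS1440 plus GSI against DMSO in KP1 and 4 to 6 for untreated H82 against COR-L88.

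The 7 changes of sign were of differences that did not pass the threshold. With a pseudocount of 0.1 the response of *CALCB* with the *STING1* KO label in H82 became 0.22, and the H524 minus H82 responses of *NPY* and *CALCB* became −0.11 and −0.068. Without H524 library 22, *VGF* became 0.57 for N1ICD in H524 and 0.67 for H524 minus H82, the lowest values with any library left out being −1.71 and −1.61. *NPY* became 0.19 for *REST* in H524 without library 38 (lowest −1.28), and −0.062 for H524 minus H82 without library 26 (highest 0.91). In H82 labelled *REST* KO, the rise of *NPY* with doxycycline lost its call in a fit of only the compared groups (adjusted *P* = 0.0772). The cause of these changes was not tested. Relative depth limits what can be said of genes listed at 0, since the reads behind 1 unit of RPKM are unknown.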
